A study of Mus musculus with 5 samples.

Results

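The proteins that carry out cytosolic translation, together with the enzymes that charge tRNAs, were examined in Rb-mutant mouse retina. Rb is the retinoblastoma protein, a tumour suppressor that restrains entry into the cell cycle. Members were taken by name alone, as all array spots whose single gene symbol in the platform annotation begins with Eif, Eef1, Eef2, Etf1, Gspt or Pabpc or is that of a tRNA synthetase. This gave 90 spots of 64 genes among the 17328 spots of the array, of which 71 spots of 49 genes were translation factors and 19 spots of 15 genes were tRNA synthetases. A spot entered the test if it had a ratio on 4 or 5 arrays. That kept 73 member spots of 57 genes, 67 of them on all 5 arrays, and left out 17 member spots. The study set retinal RNA of mutant mice (Rb-) in channel 2 against retinal RNA of wild-type mice in channel 1 on each of 5 dual-colour arrays, and its title speaks of explants, pieces of retina maintained in culture. The sources used here do not give the allele, the promoter of any Cre, the strain, the age or the time in culture. The arrays form a single group of 5 replicates, and nothing says that they came from separate animals or cultures, so a p-value here reflects array-to-array spread alone, which may be technical. No dye is named for either RNA, so each log2 ratio is given with its deposited sign, and neither sign is assigned to the mutant.

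Translation begins when initiation factors load the small ribosomal subunit with initiator tRNA, bring it to the capped end of an mRNA and place it on the start codon. Elongation factors then deliver charged tRNAs and move the ribosome along, and release factors free the finished chain at a stop codon. Each tRNA is charged with its amino acid by a dedicated synthetase. Phosphorylation of eIF2 during stress, and release of eIF4E from its binding proteins by mTOR signalling, are the main switches on the rate of the whole process.

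Between 12444 and 13145 spots per array gave a usable ratio, and each array was centred on the median of its usable spots. Arrays 1 and 3 stood apart from the others in several, but not all, marker lists of retinal cell types. The median of 26 rod photoreceptor spots minus that of all 10036 tested spots was -3.55, 0.11, -3.46, -0.40 and 0.057 log2 on arrays 1 to 5, and that of 20 spots of S-phase genes was 1.84, -0.073, 2.03, 0.75 and 0.14. The medians of cone spots (8) lay at -1.11 and -1.12 and those of amacrine and ganglion cell spots (18) at -0.74 and -0.69 on arrays 1 and 3, against -0.36 to 0.39 and -0.34 to 0.26 on the other arrays. The medians of Muller glia spots (14) lay between -0.12 and 0.13 and those of bipolar cell spots (4) between -0.43 and -0.082 on all 5 arrays. Single Muller glia spots spread in both directions, with 3 above 1 log2 and 6 below -1 of 14 on array 1. On arrays 1 and 3, 64.3% and 38.5% of them were beyond 1 log2, against 40.3% and 40.0% of all tested spots. In whole retina, fewer cells of a type and less RNA per cell cannot be told apart. Ratios give no levels, so the labelled tissue could not be checked by the abundance of its markers. The lists of lens, pigment epithelium, and microglia, vessels and blood had 2, 2 and 4 tested spots, and the part of any of these cell types in the values below was not tested.

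As a group the translation genes lay within 0.2 log2 of the median of all tested spots on each array. This held on the 2 arrays with outlying rod and S-phase genes too. On the scale centred on usable spots, the member medians were -0.38, -0.027, -0.165, 0.0065 and -0.27 on arrays 1 to 5. Those of all tested spots were -0.20, -0.02, -0.22, 0.023 and -0.13 on that scale. The median of the 73 member spots minus that of all tested spots was -0.18, -0.007, 0.053, -0.017 and -0.14 log2 on arrays 1 to 5, averaging -0.057 ± 0.096 (SD, n = 5). Spots with a single gene symbol, a set closer in kind to the members, lay at -0.16, 0.027, -0.13, 0.052 and -0.084 relative to all tested spots. Set against those, the members averaged 0.0014. On arrays 1 and 3, where the rod and S-phase lists lay furthest out, 30 and 38 of the member spots were above the median of all tested spots. Without arrays 1 and 3 the members' mean was -0.054. The labels record one scanner setting for arrays 1 to 3 and another for arrays 4 and 5, and within these sets the members averaged -0.043 and -0.077.

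**Figure D1:**
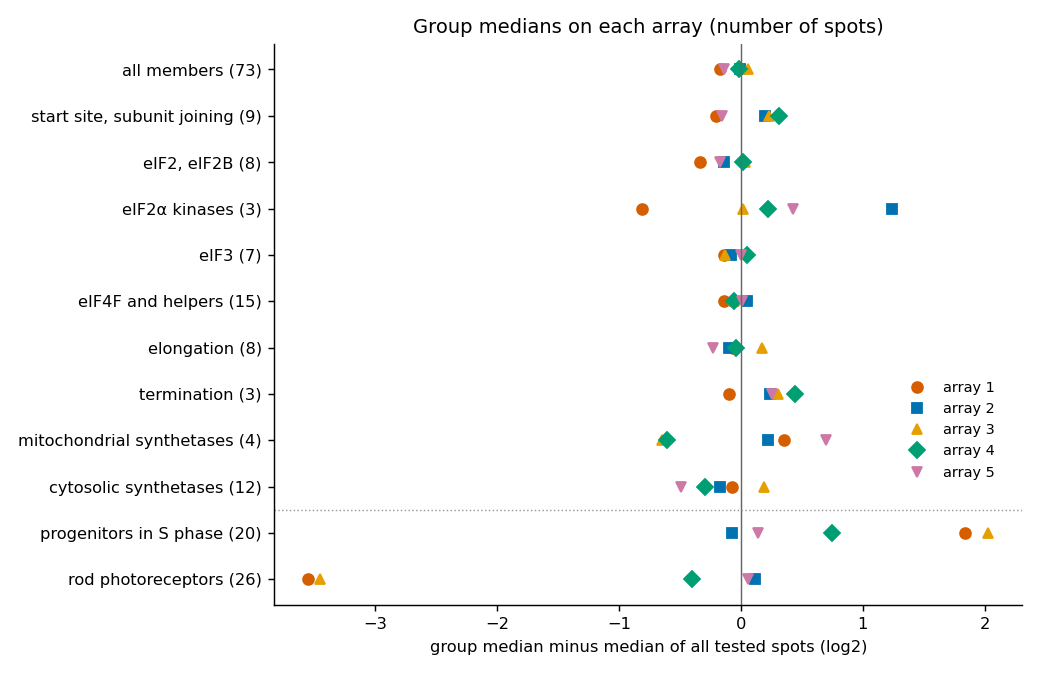
Median log2 ratio of each group of spots minus the median of all tested spots, one symbol per array, with the number of tested spots in brackets. The member groups with at least 7 spots lie within about 0.5 of 0 on every array, while the 20 S-phase spots reach 2.03 and the 26 rod spots -3.55 on arrays 1 and 3.

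No member was called. In the limma fit over all 10036 tested spots, with Benjamini-Hochberg adjustment, 0 of 73 member spots and 0.00% of all tested spots had an adjusted p under 0.05, and the smallest adjusted p of a member was 0.426. At an unadjusted p under 0.05 there were 4 member spots with a negative mean, against 5.90% of all tested and 6.18% of single-symbol spots, and 0 with a positive mean, against 5.52% and 3.35%. The 4 of 73 member spots thus lay near the share of negative spots on the whole array. Both directions together made up 11.4% of all tested and 9.53% of single-symbol spots. The 4 were one spot each of Eif2b5, Eif5b, Eif2ak3 and Vars2. When arrays were centred instead on the spots measured on all 5 of them, the means over 5 arrays all moved up by the same amount and the split became 2 negative and 3 positive, with Eif5b and Eif2b5 on the negative side and Eif2s3x, Eif5 and Gspt1 on the positive side, and 8 of the 39 named member spots changed the sign of their mean. The mean of Eif2b5 was -1.63 on that scale, against -1.78 here, so signs of means closer to 0 than that shift depend on the centring. Eif2b5 kept an unadjusted p under 0.05 without any one array, with p from 0.00341 to 0.0485 (limma), whereas Eif5b lost it without array 1 or 3, Eif2ak3 without array 1, 4 or 5 and Vars2 without array 1, 3 or 4. Over the 67 member spots on all 5 arrays, 11 were negative on every array, where 11.2% of all tested and 12.8% of single-symbol spots were, and 2 were positive on every array, where 4.01% and 3.39% were. Set against the median of all tested spots on each array, 9 of the 67 lay below it and 5 above it on every array. Of all 6753 tested spots on 5 arrays, 626 and 413 did. The counts thus depend on the centring, and no test was made of them. A mean beyond 1 log2 in either direction was found for 3 of 73 member spots, against 18.3% of all tested spots and 13.3% of those with a single symbol, and the 3 were Eif2b5, Vars2 and Eif4g3.

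Most members varied less than spots in general, both within an array and over the arrays, which is given here as a description without a test. On each array the scaled median absolute deviation of member ratios was smaller than that of all tested spots, at 0.65 against 1.14 on array 1, 0.37 against 0.63 on array 2, 0.44 against 1.14 on array 3, 0.53 against 0.74 on array 4 and 0.50 against 0.79 on array 5. The members' spread as a share of that of all tested spots averaged 0.581 ± 0.119, and as a share of that of single-symbol spots 0.697 ± 0.151 (SD, n = 5 each). Relative to all tested spots it was smallest on array 3, at 0.391, and largest on array 4, at 0.714. Over the arrays, the median SD of a member spot was 0.48 log2, against 0.87 for all tested spots and 0.72 for single-symbol spots. An SD under 0.5 was found for 38 of the 67 member spots on all 5 arrays, or 56.7%, against 31.6% of all tested spots and 36.8% of single-symbol spots. Wide spots were less unusual, with an SD over 1 for 13 member spots, or 19.4%, against 28.2% of all tested and 22.5% of single-symbol spots. Whether signal strength moves with these spreads was not tested, since only ratios were used.

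**Figure D2:**
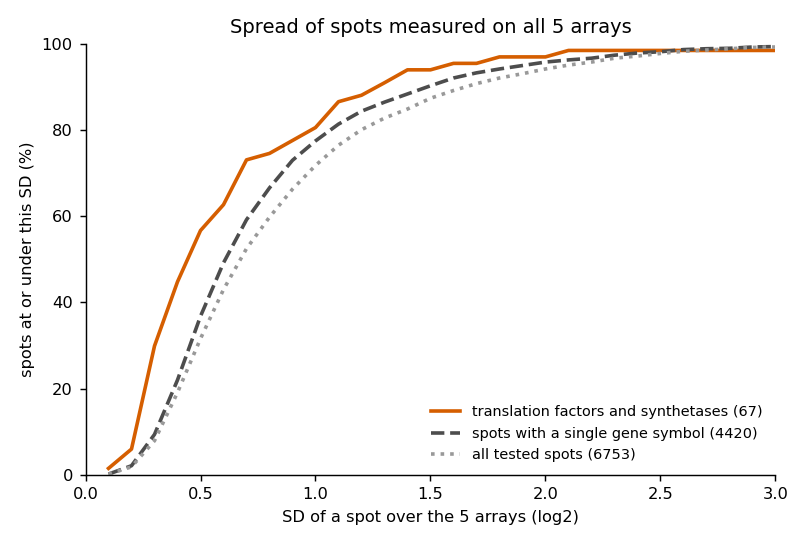
Cumulative share of spots (per cent, vertical axis) whose SD of log2 ratio over the 5 arrays is at or under the value on the horizontal axis, for 67 member spots, 4420 single-symbol spots and all 6753 tested spots on 5 arrays. At an SD of 0.5 the members stand at 56.7% and the other 2 sets at 36.8% and 31.6%.

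Among initiation factors, the steadiest measurement of all was Eif3b, a core subunit of eIF3, the large scaffold that holds the small subunit ready for mRNA. Its log2 ratios were -0.36, -0.38, -0.35, -0.35 and -0.43 on arrays 1 to 5, with a mean of -0.37 ± 0.034 (SD, n = 5). On the scale centred on usable spots, its values lay within 0.1 of each other on 5 arrays. There, 2 of the 6753 tested spots on all 5 arrays had a smaller SD. The median of all tested spots on that scale was -0.20, -0.02, -0.22, 0.023 and -0.13 on arrays 1 to 5. Set against that median the Eif3b ratios would be spread wider, so this steadiness depends on the centring. With centring on spots measured on all 5 arrays the Eif3b mean was -0.218. A test without moderation of the variance gave an unadjusted p of 1.62e-05 and an adjusted p of 0.15. In the limma test, its mean was not called either, with an unadjusted limma p of 0.141 and a two-sided p of 0.0625 in an exact permutation test that flips signs, the smallest that 5 arrays allow. All 6 eIF3 spots on 5 arrays had an SD under 0.5. The other 5 of these, Eif3a, Eif3h, Eif3k, Eif3l and Eif3m, had means from -0.14 to 0.10, and none kept one sign on all arrays. Among tested eIF3 spots Eif3f alone was wide, on 4 arrays, with 2.44, -0.51, -5.19 and 0.43 on arrays 1, 3, 4 and 5. The second Eif3f spot, on 2 arrays, gave 0.22 and -1.51 on arrays 3 and 4, and Eif3e, also on 2 arrays and not tested, -0.85 and 1.74 on arrays 2 and 5.

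**Figure D3:**
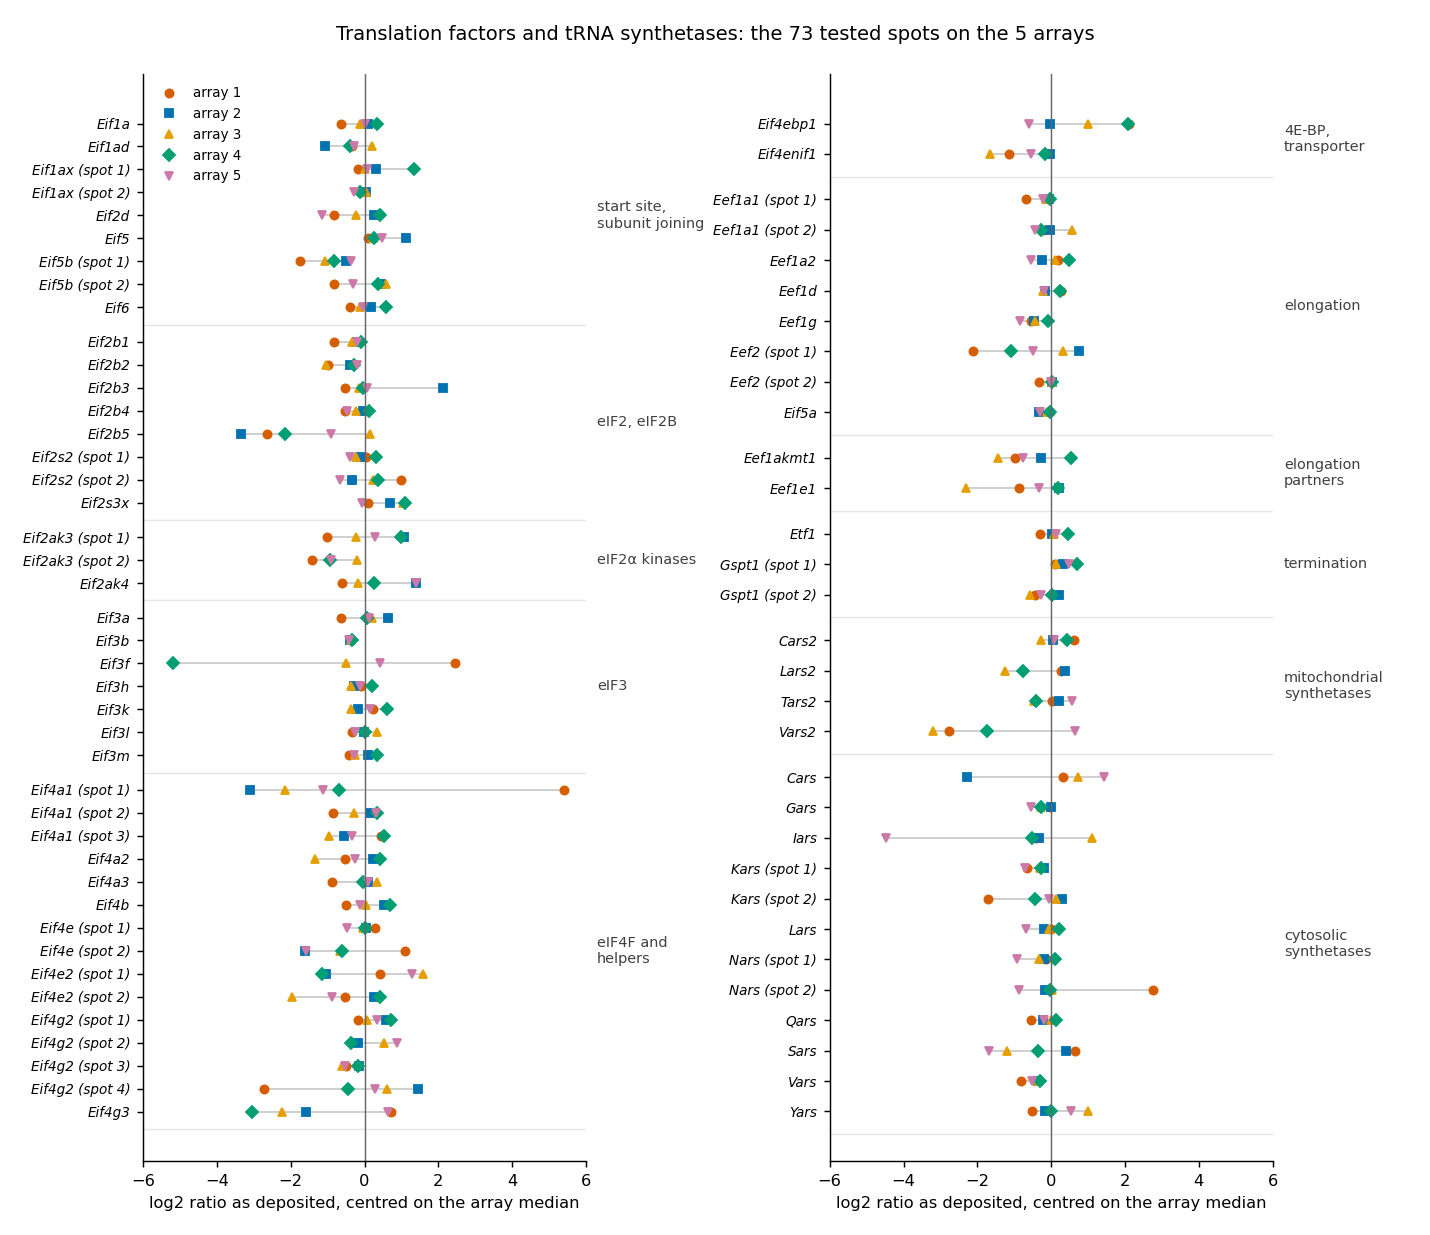
Log2 ratio, as deposited and centred on the array median, of each of the 73 tested member spots, with one symbol per array and a grey line over their range. Spots of one gene are numbered. Most spots of eIF3, elongation and termination factors form a tight cluster near 0, with single wide spots such as Eif3f, Eif4a1 spot 1 and Iars reaching past 4 log2 units from 0.

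The factors that choose the start codon and join the subunits lay at a median of 0.076 ± 0.24 log2 relative to all tested spots (SD over 5 arrays, 9 spots). Eif5, which triggers GTP hydrolysis by eIF2 at the start codon, was positive on all 5 arrays, at 0.084, 1.12, 0.24, 0.26 and 0.48 on arrays 1 to 5, with a mean of 0.44 ± 0.41 (SD, n = 5) and an unadjusted limma p of 0.146. The other 3 Eif5 spots were measured on 1 to 3 arrays and had means from -0.47 to 1.59. Eif5b, the GTPase that joins the large subunit, was measured by a pair of spots that disagreed. The first was negative on all 5 arrays, at -1.73, -0.51, -1.08, -0.83 and -0.37 on arrays 1 to 5, with a mean of -0.90 ± 0.54 (SD, n = 5) and an unadjusted p of 0.0192 (limma, adjusted p = 0.432). The second had -0.82, 0.45, 0.57, 0.36 and -0.33 on arrays 1 to 5, with a mean of 0.048. Eif6, which keeps the subunits apart, ran from -0.41 to 0.57 over the arrays. Eif1a and the X-linked Eif1ax are close copies, so their spots may detect each other's RNA. The Eif1a spot averaged -0.062 ± 0.36 and the Eif1ax spots 0.31 ± 0.61 and -0.089 ± 0.13 (SD, n = 5 each). Eif2d, which can deliver tRNA to the small subunit outside the usual eIF2 route, averaged -0.31 ± 0.67, and Eif1ad -0.38 ± 0.46 (SD, n = 5 each).

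eIF2 carries the initiator tRNA, and eIF2B, a complex of 5 kinds of subunit, recharges it with GTP. All 5 eIF2B genes were measured on 5 arrays. Eif2b5, the catalytic subunit, had the smallest p of all members and the most negative mean, with -2.64, -3.34, 0.15, -2.16 and -0.92 on arrays 1 to 5. Array 3 alone was above 0, and arrays 1, 2 and 4 were the furthest below it, with a mean of -1.78 ± 1.40 (SD, n = 5) and an unadjusted p of 0.0141 (limma, adjusted p = 0.426). The other subunits of the same complex did not share that size. Eif2b2 was negative on every array, at -0.99, -0.40, -1.04, -0.28 and -0.20 on arrays 1 to 5, with a mean of -0.58 ± 0.40 (SD, n = 5) and an unadjusted p of 0.0649. Eif2b1 was also negative on every array, between -0.82 and -0.085, and Eif2b4 lay between -0.54 and 0.12. Eif2b3 was within 0.6 of 0 on 4 arrays and at 2.13 on array 2. Of the eIF2 trimer, Eif2s3x, the X-linked gamma subunit, was positive on 4 arrays, with 0.10, 0.70, 1.05, 1.09 and -0.079 on arrays 1 to 5 and a mean of 0.57 ± 0.54 (SD, n = 5). The spots of Eif2s2, the beta subunit, averaged -0.081 ± 0.27 and 0.12 ± 0.64 (SD, n = 5 each). No spot was listed under Eif2s1, the alpha subunit that stress kinases phosphorylate.

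Among the kinases that phosphorylate eIF2, Eif2ak3, known as PERK and activated by unfolded protein in the endoplasmic reticulum, was measured by 2 spots of opposite sign. The spot on 4 arrays had -1.42, -0.20, -0.94 and -0.91 on arrays 1, 3, 4 and 5, with a mean of -0.87 ± 0.50 (SD, n = 4) and an unadjusted p of 0.0410 (limma, adjusted p = 0.432). The spot on 5 arrays had -1.02, 1.06, -0.23, 0.99 and 0.30 on arrays 1 to 5, with a mean of 0.22. The spots shared their sign on 2 of the 4 arrays that both covered, and their means differed by 1.09 log2, the widest gap among the 20 pairs of tested spots of a member gene. Eif2ak4, known as GCN2 and activated by uncharged tRNA, had -0.60, 1.38, -0.17, 0.25 and 1.40 on arrays 1 to 5, with a mean of 0.45 ± 0.91 (SD, n = 5) and an unadjusted p of 0.283. It was above 1 on arrays 2 and 5 and below 0 on arrays 1 and 3.

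The cap-binding complex eIF4F joins the cap-binding protein eIF4E, the helicase eIF4A and a scaffold of the eIF4G family. The group of eIF4F and its helpers also holds Eif4a3, Eif4b, Eif4e2 and Eif4g2. Its 15 tested spots had a median of -0.040 ± 0.072 log2 relative to all tested spots (SD over 5 arrays). That SD was the smallest of any role group, although single spots were among the widest of all members. Eif4e was steady on one spot, at 0.28, 0.03, -0.047, 0.0065 and -0.47 on arrays 1 to 5, and wide on the other, at 1.09, -1.61, -0.67, -0.62 and -1.58 on arrays 1 to 5. The second was negative on 4 arrays and positive on array 1, with a mean of -0.68 ± 1.10 (SD, n = 5). Of the 3 Eif4a1 spots, 2 stayed within 1 log2 of 0 on every array and the first ran from -3.11 on array 2 to 5.40 on array 1, the highest ratio of any tested member. Eif4a2, the form abundant in neurons, averaged -0.30 ± 0.70, Eif4a3, a helicase of the exon junction complex, -0.074 ± 0.48, and Eif4b, which stimulates eIF4A, 0.13 ± 0.49 (SD, n = 5 each). Eif4g3 had 0.72, -1.59, -2.24, -3.04 and 0.63 on arrays 1 to 5, positive on arrays 1 and 5 and far below 0 on the others, with a mean of -1.10 ± 1.70 (SD, n = 5). Eif4g2, a scaffold without the eIF4E-binding site, had 4 tested spots with means of 0.30, 0.21, -0.40 and -0.17. Eif4e2, a cap-binding protein that represses translation, had spots at means of 0.22 and -0.54 whose signs differed on all 5 arrays. No spot was listed under Eif4g1.

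The binding proteins hold eIF4E back from the cap until mTOR signalling phosphorylates them. Eif4ebp1 had the highest mean of all tested members, with 2.10, -0.02, 1.00, 2.09 and -0.60 on arrays 1 to 5. It was near or above 1 on arrays 1, 3 and 4 and at or below 0 on arrays 2 and 5, with a mean of 0.92 ± 1.22 (SD, n = 5) and an unadjusted p of 0.102 (limma, adjusted p = 0.457). The S-phase list was likewise highest on arrays 1, 3 and 4, at 1.84, 2.03 and 0.75, and whether the 2 are linked was not tested. Both Eif4ebp2 spots were on 3 arrays only. One gave -5.37, 0.67 and -0.32 on arrays 2, 3 and 5, and the other 2.13, -6.03 and -0.006 on arrays 3, 4 and 5. Eif4enif1, which carries eIF4E into the nucleus and silences mRNAs, was negative on all arrays, at -1.13, -0.035, -1.65, -0.17 and -0.54 on arrays 1 to 5, with a mean of -0.71 ± 0.68 (SD, n = 5) and an unadjusted p of 0.0694.

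Elongation factors, among the most abundant mRNAs of any cell, varied little, with 7 of the 8 spots on 5 arrays at an SD under 0.5 and a group median of -0.054 ± 0.15 log2 relative to all tested spots (SD over 5 arrays). Eef1a1, which brings charged tRNA to the ribosome, had -0.68, -0.061, -0.13, -0.022 and -0.21 on arrays 1 to 5 on one spot and -0.21, -0.032, 0.58, -0.29 and -0.44 on arrays 1 to 5 on the other. Eef1a2, the form of neurons and muscle, ran from -0.55 to 0.49. These sequences are close enough that a cDNA spot of one may detect the other. Eef2, the translocase, had -0.33, 0.026, 0.028, 0.026 and -0.006 on arrays 1 to 5 on its steady spot. Only array 1 was more than 0.1 from 0, on the scale centred on usable spots. The mean of this spot was -0.050 on that scale and 0.104 with centring on spots measured on all 5 arrays. The other Eef2 spot had -2.11, 0.76, 0.32, -1.08 and -0.49 on arrays 1 to 5 and was the one elongation spot with an SD over 0.5. Eef1g, of the complex that reloads eEF1A with GTP, was negative on all arrays, at -0.55, -0.47, -0.44, -0.097 and -0.84 on arrays 1 to 5, with a mean of -0.48 ± 0.27 (SD, n = 5) and an unadjusted p of 0.0895. Eef1d of the same complex ran from -0.23 to 0.27. Eif5a, which eases the ribosome past difficult stretches, stayed below 0 throughout, averaging -0.16. Of the enzymes and partners of elongation factors, the methyltransferase Eef1akmt1 averaged -0.58 ± 0.75. Eef1e1, a scaffold of the multi-synthetase complex, averaged -0.63 ± 1.04 (SD, n = 5 each), with -2.31 on array 3.

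Termination was represented by Etf1, the release factor that reads stop codons, and Gspt1, its GTPase partner. Etf1 had -0.30, 0.011, 0.085, 0.47 and 0.13 on arrays 1 to 5, with a mean of 0.078 ± 0.27 (SD, n = 5). One Gspt1 spot was positive on every array, at 0.095, 0.31, 0.12, 0.71 and 0.48 on arrays 1 to 5, with a mean of 0.34 ± 0.26 (SD, n = 5) and an unadjusted p of 0.202. The other had -0.43, 0.22, -0.57, 0.034 and -0.28 on arrays 1 to 5, negative on 3 arrays. All 3 termination spots had an SD under 0.5. The cytoplasmic poly(A)-binding protein Pabpc1 was measured on arrays 4 and 5 alone, at -3.78 and 0.30, and was not tested.

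The 12 tested spots of cytosolic synthetases lay at -0.073, -0.17, 0.19, -0.30 and -0.49 log2 relative to all tested spots on arrays 1 to 5, which averages to -0.17 ± 0.25 (SD, n = 5). This value was -0.0896 without array 5 and -0.259 without array 3, -0.0197 on arrays 1 to 3 and -0.395 on arrays 4 and 5. No cytosolic synthetase had an unadjusted p under 0.05. The lowest belonged to Vars, for valine, and to Kars, for lysine. Vars was negative on every array, at -0.81, -0.35, -0.34, -0.30 and -0.51 on arrays 1 to 5, with a mean of -0.46 ± 0.21 (SD, n = 5) and an unadjusted p of 0.0912 (limma, adjusted p = 0.454). Kars was negative on every array on its first spot, at -0.65, -0.20, -0.30, -0.28 and -0.72 on arrays 1 to 5, with a mean of -0.43 ± 0.24 (SD, n = 5) and an unadjusted p of 0.117. Its second spot was negative on 3 arrays, down to -1.73 on array 1. Gars for glycine averaged -0.23 ± 0.22, Qars for glutamine -0.17 ± 0.26 and Lars for leucine -0.15 ± 0.34 (SD, n = 5 each). Iars, for isoleucine, had -0.41, -0.33, 1.11, -0.51 and -4.47 on arrays 1 to 5, with array 5 far below the other 4 and a mean of -0.92. Nars, for asparagine, averaged -0.29 ± 0.38 on one spot and 0.34 ± 1.40 on the other, which stood at 2.76 on array 1 (SD, n = 5 each). Sars for serine ran from -1.68 to 0.65 and Yars for tyrosine from -0.52 to 1.00.

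The mitochondrial synthetases, which charge tRNAs inside the organelle, had 4 tested spots and no shared direction. Vars2, for valine, had -2.77, -3.19, -1.74 and 0.64 on arrays 1, 3, 4 and 5, with a mean of -1.77 ± 1.72 (SD, n = 4) and an unadjusted p of 0.0459 (limma, adjusted p = 0.435). It was far below 0 on 3 arrays and above it on array 5. Cars2 averaged 0.19 ± 0.35 and Tars2 -0.015 ± 0.43 (SD, n = 5 each), and Lars2 ran from -1.26 to 0.38 on 4 arrays. Vars2 and cytosolic Vars, 2 enzymes for the same amino acid, thus both lay on the negative side on arrays 1, 3 and 4.

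Several genes carried both a steady and a wide spot. Of 12 member genes with at least 2 spots on all 5 arrays, 8 had a widest spot with an SD at least 2 times that of the steadiest one. The ratio was 7.42 for Eif4g2, 7.37 for Eef2, 6.56 for Eif4a1, 4.56 for Eif1ax and 4.03 for Eif4e. For Eef2, Eif4e and Eif4a1 the SD of the widest spot was 1.14, 1.10 and 3.34 log2, and that of the steadiest 0.15, 0.27 and 0.51. Of the 13 member spots with an SD over 1, 6 belonged to a gene with another spot under 1. Over 20 pairs of tested spots of one gene, 9 had means of the same sign and 11 of opposite sign, with a median gap of 0.436 log2. No pair on all 5 arrays had means of opposite sign more than 1 log2 apart. A single spot therefore did not represent its gene for several members.

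**Figure D4:**
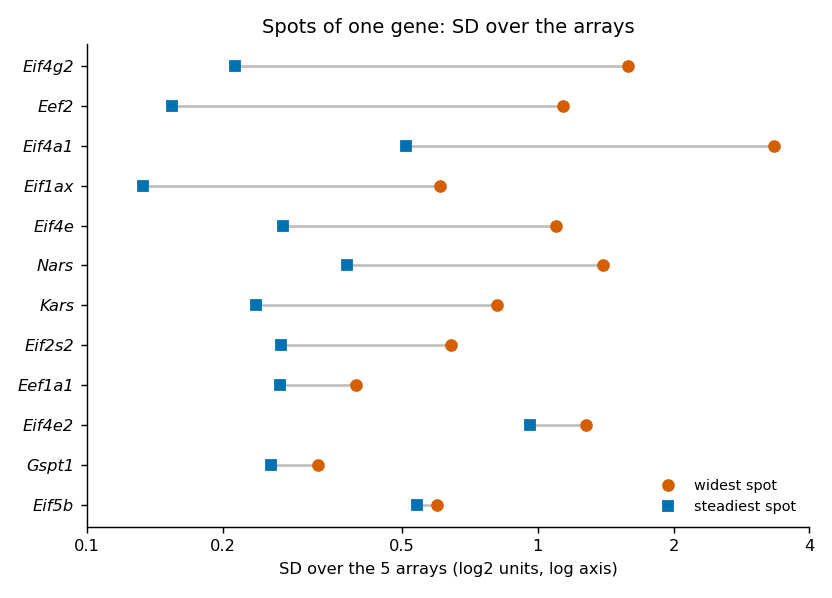
SD of the log2 ratio over the 5 arrays (log axis) for the widest and the steadiest spot of each of the 12 member genes with at least 2 spots on all arrays. The SD of the widest spot is 7.42 times that of the steadiest for Eif4g2 and 1.1 times for Eif5b.

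Single arrays had large values among spots just inside and just outside the requirement of 4 arrays. The 6 member spots on 4 arrays had means from -1.77 to 0.21, with single ratios from -5.19 to 2.44. The 9 on 3 arrays had means from -1.68 to 2.002, with single ratios from -6.03 to 4.29. The highest of these means on 3 arrays came from one more Eif4g2 spot, with 2.48, 4.29 and -0.76 on arrays 2, 4 and 5. Eif4h and Eif5a2, a helper of eIF4A and a relative of Eif5a, were represented by such spots alone, as was Eif4e3, a relative of the cap-binding protein, at -0.35, 0.36 and -0.41 on arrays 1, 2 and 4. The tested Cars spot, for cysteine, had 0.31, -2.27, 0.72 and 1.43 on arrays 1, 2, 3 and 5. Mars1, for methionine, was on 2 arrays, at -0.31 and 0.50 on arrays 2 and 3.

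Among genes around translation, no gene of 7 related lists was called in the limma fit. The share of spots at an unadjusted p under 0.05 was 5.48% for the members, 33.3% for the mTORC1 list, 10.0% for the regulator and decay list, 10.0% for the Myc family and 0 for the other 4 lists, against 11.4% of all tested and 9.53% of single-symbol spots. The mTORC1 pathway, which couples growth signals to translation, had 3 positive and 1 negative of 12 spots at an unadjusted p under 0.05, where 5.52% of all tested spots were positive and 5.90% negative. A mean beyond 1 log2 was found for 25.0% of its spots, against 18.3% of all tested spots. The lowest mean in the list, -1.935, was that of a spot without an unadjusted p under 0.05 (limma), which is not named here. The list had a median of 0.16 ± 0.083 log2 relative to all tested spots (SD over 5 arrays), positive on every array. Rptor, the scaffold subunit of mTORC1, was negative throughout, at -2.03, -0.42, -1.55, -0.52 and -0.71 on arrays 1 to 5, with a mean of -1.05 ± 0.71 (SD, n = 5) and an unadjusted p of 0.0180 (limma, adjusted p = 0.432). Rragd, a GTPase that brings mTORC1 to the lysosome, was positive throughout, at 0.23, 1.47, 1.14, 1.24 and 0.36 on arrays 1 to 5, with a mean of 0.89 ± 0.56 (SD, n = 5) and an unadjusted p of 0.0215 (limma, adjusted p = 0.432). The other positive spots, named because the count is small and after their values were seen, were Tsc1, whose product holds mTORC1 back, at 1.05, 0.57, 0.39, 0.57 and 1.21 on arrays 1 to 5, and Rheb, its activator, at 1.56, 1.30, 0.17 and 3.34 on arrays 1, 3, 4 and 5. The genes on the positive side thus include both an activator and an inhibitor of the pathway. No spot was listed under Mtor itself.

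The amino acid and integrated stress response, through which eIF2 kinases raise synthetase genes, had 0 of 9 spots at an unadjusted p under 0.05, with Sesn2 at -0.78, 2.48, 0.90, 0.30 and 3.33 on arrays 1 to 5 and Cebpg at 0.55, 0.17, 1.23, 0.47 and 0.085 on arrays 1 to 5. Cebpg was positive on all 5 arrays, and Sesn2 was negative on array 1 alone. These 2 do not stand for the list. The median of its spot means was -0.31, against -0.16 for all tested spots, and its lowest mean was -1.21. Means beyond 1 log2 made up 33.3% of its 9 spots, against 18.3% of all tested spots. The list's median of 0.15 log2 relative to all tested spots became -0.0953 when spots on 3 arrays were added. Atf4 had one spot, on too few arrays to test, and Asns had none listed. Synthetases and complex members under other names had 3 tested spots, none past that p, with Eprs, which charges both glutamate and proline, at 0.05, -0.067, 0.15, 0.32 and -0.62 on arrays 1 to 5 and Farsa, for phenylalanine, at a mean of -0.21 ± 0.39 (SD, n = 5). Mitochondrial translation factors had 0 of 5, with Gatc and Gatb at means of 0.39 ± 0.33 and -0.36 ± 1.02, and ribosome biogenesis 0 of 13, with Polr1a, the large subunit of RNA polymerase I, at -0.86, -0.27, -0.49, -0.25 and -0.46 on arrays 1 to 5 and Rrp1 at a mean of -0.56 ± 0.45 (SD, n = 5 each). Translation regulators and mRNA decay partners had 1 positive and 1 negative of 20. The negative one was a spot of the RNA-binding repressor Pum2, at a mean of -1.21 ± 1.11 (SD, n = 5), and the other Pum2 spots had means of 0.087 and 0.26. The positive one, named after its values were seen, was Cpeb3, which binds and regulates mRNAs in neurons, at 2.73, 1.93, 3.31 and -0.58 on arrays 2 to 5. The helicase Ddx3x averaged 0.86 ± 0.83 (SD, n = 5) with an unadjusted p of 0.0524 (limma), and 0.44 on its other spot. The Myc family had 1 negative of 10, Mnt, a repressor that competes with Myc, at -1.31, -0.45, -1.88, -0.61 and -0.67 on arrays 1 to 5 and an unadjusted p of 0.0163 (limma, adjusted p = 0.429). Mycn averaged -0.25 ± 0.26 and one Mlx spot -0.60 ± 0.86 (SD, n = 5 each), the other Mlx spot had a mean of 0.33, and Myc was not measured on enough arrays.

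Promoters were read from RefSeq (GRCm38.p6) as 250 bases before to 50 after each start, and 47 of the 64 member genes were matched. The E-box CACGTG, the letters bound by Myc and its relatives, was found in 10 of the 47, or 21.3%, against 8.09% of 27025 genes. Those 27025 were all genes with a promoter in the same set, not limited to genes on the array. A gene counted if any of its promoters matched, and the 47 had 60 promoters. Neither promoter number nor kind of gene was matched for this or the 2 motifs below, and no test was made. Those of Eif4e and Eef2 are shown because the genes also had a steady spot near 0, with capitals marking the E-box. Both stretches lie before the start.
Eif4e: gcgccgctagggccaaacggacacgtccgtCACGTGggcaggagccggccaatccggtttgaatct
Eef2: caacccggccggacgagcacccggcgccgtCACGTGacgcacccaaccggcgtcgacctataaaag
The Eif4e stretch lies at chr3:138527174-138527239 on the plus strand and the Eef2 stretch at chr10:81176558-81176623 on the plus strand, with the E-box shown 64 and 43 bases before the start. The Eif4e promoter held another E-box 228 bases before the start, which is not shown. The other members with an E-box were Eif3a, Eif3f, Eif3k, Eif4a1, Eif4h, Eif5a, Eif5a2 and Iars.

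The element TGATGNAA, read on both strands and part of the site bound by ATF4, was found in 4 of the 47 member genes, or 8.51%, against 4.51% of all genes, and 3 of the 4 were among the 11 matched synthetase genes. The 4 are shown with the element in capitals, in 30 bases each, since synthetase genes are known targets of this response.
Gars: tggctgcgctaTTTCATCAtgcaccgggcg
Iars: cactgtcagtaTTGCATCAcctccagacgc
Yars: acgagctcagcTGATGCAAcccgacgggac
Eif2s3x: ttcgccatcatTTTCATCAggtctatgccg
The Gars stretch lies at chr6:55037960-55037989 on the plus strand and the Eif2s3x stretch at chrX:94212729-94212758 on the minus strand, with the element 30 and 96 bases before the start. The Iars stretch lies at chr13:49682126-49682155 and the Yars stretch at chr4:129189895-129189924, both on the plus strand, with the element 8 and 4 bases after the start. The means of these genes on 5 arrays were -0.23 for Gars, -0.92 for Iars, 0.17 for Yars and 0.57 for Eif2s3x, and no shared sign was seen. The E2F letters TTTCCCGC, TTTGGCGC, TTTCGCGC and TTTGCCGC, on both strands, were found in 3 of the 47, or 6.38%, against 2.6% of all genes. These were Eef1e1, Eif2d and Eif4enif1, with means of -0.63, -0.31 and -0.71. A match describes the letters alone.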

How the data were processed

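Ratios of mutant and wild-type retinal RNA were analysed on 5 dual-colour arrays. The deposited values are log2 ratios made by the authors with GenePix Pro 4.1.1.29 after local background subtraction and without normalization, per the labels. The software ratio is that of 635 over 532 nm, but which RNA carried which dye, and what left some cells empty, the sources used here do not give. Cells at 16.61, the log2 of 100000, were set to missing. Each array was centred on its median, and spots on at least 4 arrays were tested against 0 with limma 3.58.1 in R 4.3.3, with Benjamini-Hochberg adjustment over 10036 spots and a threshold of 0.05. The fit was run on simulated data, where recovery of added changes was required only with spot spreads made smaller than the real ones. Recovery at the real spread is not reported here, so this check does not speak to the power of the test in these data. Spots were named from the platform annotation, where 7722 spots have 1 symbol, 353 several and 9061 none, and 192 are controls. Named members were those with an unadjusted p under 0.05, up to 3 genes per role with the smallest p, and a set of central factors. In related lists they were up to 2 genes each. Other members are described by their values. The members and lists were chosen with earlier results of these data known. Array number limits the precision. Alternatives in centring, filtering and arrays used were computed.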

Additional observations from a re-analysis of the deposited data

Results flagged for a closer look

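Among 56 member spots and group medians checked on 5 arrays, 3 had one array far from the other 4, where chance gives about 1 in 20, or 2.8. All 3 were on array 1. The first Eif4a1 spot stood at 5.40 log2 on array 1, with the other arrays between -3.11 and -0.69. The first Eef1a1 spot stood at -0.68, with the others between -0.21 and -0.022. The steady Eef2 spot stood at -0.33, with the others between -0.006 and 0.028. These values are on the scale centred on usable spots. The median of all tested spots on that scale was -0.20, -0.02, -0.22, 0.023 and -0.13 on arrays 1 to 5. Set against that median, the Eef2 value on array 1 would not stand apart. For Eef1a1 the gap from array 1 to the nearest array was 0.712 of the range, just past the limit of 0.71. Set against that median it would fall short of the limit, so the Eef2 and Eef1a1 flags both depend on the centring.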

How the results depend on the processing

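Over 21 results and 359 alternative values, 17 moved by more than 1 SD over arrays or, for counts, by over 1.5 times, and 342 did not. Some of the 342 could not move. The group medians are differences within an array, so leaving out or changing the centring returned the same value. The spread ratio likewise could not change with the centring or with scaling of the arrays. The count of unmoved values is therefore no measure of stability. Nothing was called, so no call could be lost. With SDs this wide, the medians of several small groups shifted within 1 SD. Those of the eIF3 spots and the stress response list moved by more in the settings given below. The cytosolic synthetase median, -0.17 in the main analysis, was -0.0197 on arrays 1 to 3 and -0.395 on arrays 4 and 5, and -0.0896 without array 5. That of the eIF2 kinases, 0.219, was -0.0357 without array 2 and 0.631 without arrays 1 and 3. That of the mitochondrial synthetases, 0.0018, was 0.251 for spots on all 5 arrays and -0.171 without array 5. Leaving out one array gave 0.0171 to 0.145 for start-site factors and -0.16 to -0.0679 for eIF2 and eIF2B. It gave -0.0619 to -0.0154 for eIF4F and its helpers and -0.111 to -0.009 for elongation factors. The count of member spots at an unadjusted p under 0.05 with a negative mean, 4 in the main analysis, was 2 with centring on spots measured on all 5 arrays or on single-symbol spots (the second chosen after seeing the data), 10 without centring, 2 over gene means, 1 on arrays 1 to 3, 1 on arrays 4 and 5 and 9 without moderation. Leaving out one array at a time gave 2 to 4, with 2 without array 3. The count with a positive mean, 0 in the main analysis, was 3 under either of those centrings and 1 without moderation, and leaving out one array gave 0 to 1, with 1 without array 5. The median of eIF3 spots was 0.0248 on arrays 4 and 5. The stress response list stood at 0.267 for spots on all 5 arrays, -0.0953 for spots on at least 3 and 0.353 over gene means, and the regulator and decay list at -0.0805 for spots on at least 3 arrays. The cause of these moves was not tested. No adjusted p of a member fell under 0.05, with the lowest from 0.15 to 0.699 over the alternatives. Mutant and wild-type RNA shared every array, so each ratio is a comparison within an array. The test of the ratios against 0 is paired in that sense, and the arrays form 1 group of such ratios. Signal over background was not analysed, so its limit on dim spots is unknown.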
